A study of Drosophila melanogaster with 4 samples.

Results

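Of the 17409 genes counted in testes and seminal vesicles of adult Drosophila melanogaster males, 55 protein-coding genes that carry only a systematic CG number as their name were read in seminal vesicle and hardly at all in testis. They were chosen by 3 conditions: a symbol made of CG plus digits, at least 1 CPM (a count per 1000000 gene counts of the library) in both seminal vesicle libraries, and under 0.1 CPM in both testis libraries. Genes on chromosome 4 and CG13460 were left out, and chromosome 4 held 0 genes that met the conditions. The files name genes by FlyBase identifier, and symbols, types and positions come from a newer annotation of the same Release 6 genome (BDGP6), in which 17172 identifiers (98.6%) were found. The conditions on level were met by 117 annotated genes (0.681%), of which 97 were protein-coding, and by 0.931% of the 6015 protein-coding genes with a CG symbol. Since the genes were chosen for the difference between the tissues, that difference is described for them and not tested.

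The study measured polyadenylated RNA in 2 libraries of each tissue. All 4 came from males of the wild-type strain Oregon-R-modENCODE, 4 to 5 days old, held without females under constant light, and no group carried a mutation or a treatment. The testis sample is the organ cut free at its base. The seminal vesicle sample also contains the terminal epithelium, the zone where the testis joins the vesicle, so values called seminal vesicle below belong to both. The labels number the libraries 1 and 2 in each tissue and do not say how many animals each holds, so the spread between them may be partly technical.

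The seminal vesicles of the fly are a pair of sacs in which mature sperm are kept until mating, and each is lined by a secretory epithelium and wrapped in muscle. A CG symbol is the computed number that FlyBase gives to an annotated gene, and it stays in use where no name has been assigned from a mutant, a product or a relative. Several of these genes can still be placed in a protein family by their sequence, and such placements are given below as background.

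Gene counts totalled 14088989 and 15528462 in the testis libraries and 13385256 and 11120405 in the seminal vesicle libraries. At this depth 1 count was worth 0.071 and 0.0644 CPM in testis, so under 0.1 CPM means 0 or 1 count in a library. Of 19 tested germ cell and spermatid markers, 19 were higher in testis (edgeR quasi-likelihood test, Benjamini-Hochberg adjusted p under 0.05), where the same call was made for 44.5% of the 11737 genes tested, and the opposite call for 42.1%. Their summed level was 15227 and 16119 CPM in testis, and it was still 1011 and 2046 CPM in the seminal vesicle libraries. In such bulk samples, fewer cells of a type and less RNA per cell cannot be told apart.

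By the limit on testis, the 55 genes were quiet there down to single reads. In both testis libraries together, 21 of them had 0 counts, 27 had 1 count and 7 had 2 counts, and the whole set gathered 17 and 24 counts there. In seminal vesicle the set gathered 5565 and 2827 counts, or 0.0416% and 0.0254% of all gene counts. The set as a whole was therefore a small share of the seminal vesicle RNA. Its summed level was lower in replicate 2, at 254 CPM against 416 CPM in replicate 1. Most of that fall lay in CG42828, with 158 and 59.3 CPM, and CG9512, with 38.8 and 3.87 CPM. For the 21 genes with 0 testis counts, the level in seminal vesicle was at least 11.7-fold to at least 226-fold above the floor of 3 counts over both testis libraries (0.101 CPM), with a median bound of 27.8-fold.

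Most of the genes were low in seminal vesicle too. Their mean level ran from 1.18 to 108.6 CPM with a median of 2.96 CPM; 5 genes reached 10 CPM, 13 reached 5 CPM and 30 lay under 3 CPM. Per kb of exon, the scale on which genes are compared here, the median was 3.36 CPM per kb and the range 0.233 to 230.6 CPM per kb. The other 41 protein-coding genes that met the same limits on level, those with names, had a median of 2.66 CPM per kb.

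**Figure D1:**
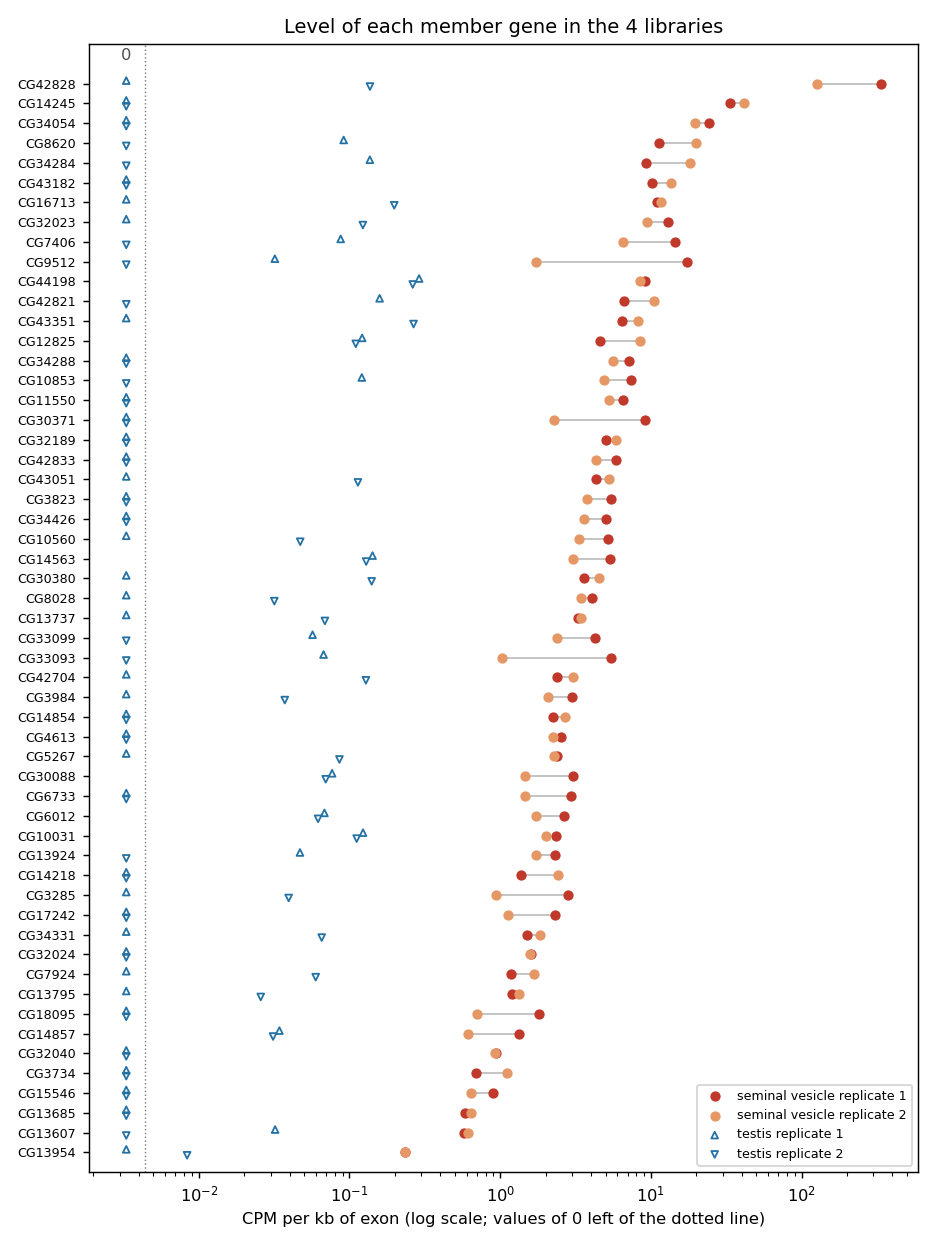
Level of each of the 55 genes in each of the 4 libraries, in CPM per kb of exon on a log axis, with 1 row per gene in order of mean level; filled circles are seminal vesicle libraries, open triangles are testis libraries, and testis values of 0 stand left of the dotted line. In every row both circles lie right of both triangles, which the choice of genes fixes, and the circles of CG9512, CG33093 and CG30371 lie furthest apart.

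CG42828 (FBgn0262010, 3R:23373703-23374245, plus strand), which codes for 89 amino acids, stood above the rest. It had 0 and 1 counts in testis and 2114 and 659 in seminal vesicle, a mean of 108.6 ± 69.8 CPM (SD, n = 2) and 230.6 CPM per kb. Its level was highest of the 55 in both seminal vesicle libraries, and 2.67 times higher in replicate 1 than in replicate 2. The ratio of its level between the tissues, seminal vesicle over testis, was 3351, with a 95% counting interval from 601 upward, because a single testis read sets it.

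CG14245 (FBgn0039452, 3R:26728727-26729341, plus strand), a single-exon gene for 103 amino acids, followed with 276 and 284 counts in seminal vesicle and 0 in both testis libraries. It was at least 226-fold above the testis floor, and its mean of 23.1 ± 3.48 CPM (SD, n = 2) held in both libraries. CG34054 (2R:11409810-11410438, minus strand), a gene for 161 amino acids, had 178 and 119 counts in seminal vesicle against 0 and 0, or at least 120-fold. CG8620 (3L:7158099-7158874, plus strand), with a single exon and 187 amino acids, had 118 and 171 counts against 1 and 0. Per kb of exon these 3 genes lay at 37.5, 22 and 15.6 CPM, next in order behind CG42828.

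Among enzymes, CG9512 (X:14901844-14905549, minus strand), of the glucose-methanol-choline oxidoreductase family, had the highest mean level. Its counts in seminal vesicle were 520 in replicate 1 and 43 in replicate 2, against 1 and 0 in testis, so its mean of 21.4 ± 24.7 CPM (SD, n = 2) was set by 1 library. CG10560, of the ecdysteroid kinase-like family, had 95 and 51 counts against 0 and 1 in testis, so that in replicate 2 it lay above CG9512, at 3.35 against 1.74 CPM per kb. CG6733, an aminoacylase-like peptidase, had 51 and 21 against 0 and 0, and CG6012, a short-chain dehydrogenase, had 37 and 20 against 1 and 1. Replicate 1 was the higher seminal vesicle library for all of these enzymes. That the tissues do not overlap is fixed by the choice of genes, here and for the rest of the set.

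Transport and lipid binding formed another recognisable group. CG8028, a relative of the monocarboxylate transporters, had 110 and 78 counts in seminal vesicle against 0 and 1 in testis. CG13795, of the family of sodium-coupled neurotransmitter transporters, had 40 and 37 against 0 and 1. The sugar transporter relative CG3285 had 62 and 17 against 0 and 1, and the organic cation transporter relative CG14857 had 37 and 14 against 1 and 1. CG8028 and CG13795 were thus near equal in the seminal vesicle libraries on the CPM scale, while CG3285 and CG14857 were higher in replicate 1. CG11550 and CG3823, both of the CRAL-TRIO family of proteins that bind small lipophilic molecules, had 92 and 62 counts and 93 and 54 counts with 0 in both testis libraries, at least 62.0-fold and 59.2-fold above the floor.

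Proteases and protease inhibitors made up a further group. CG4613, CG30088 and CG17242 belong to the trypsin-like serine proteases and had 42 and 31, 38 and 15, and 32 and 13 counts in seminal vesicle. CG3734, a serine carboxypeptidase of another family, had 15 and 20. CG16713 and CG10031 are Kunitz-type inhibitors, small cysteine-bridged proteins that block serine proteases; CG16713 had 48 and 42 counts and CG10031 had 18 and 13. Testis counts were 0 or 1 in every library for these 6 genes. CG30088 lies wholly inside asRNA:CR44372, an antisense RNA on the opposite strand with 14.9 and 11.8 CPM in testis, and its own 1 and 1 testis counts are therefore uncertain. CG4613 lies in an intron of bbg on the same strand. bbg had 412 and 596 CPM in seminal vesicle, so the seminal vesicle counts of CG4613 are uncertain.

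For the remaining genes no family is given here. CG7406 had 156 and 59 counts in seminal vesicle against 1 and 0 in testis, and CG30371 had 154 and 32 against 0 and 0. CG34284 went the other way, with 65 and 105 counts against 1 and 0. CG32023 had 92 and 55 against 0 and 1. Replicate 1 was thus the higher library for 3 of these 4 genes.

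Short genes ranked higher per length than by counts. CG43182, a gene for 71 amino acids, had only 34 and 38 counts but lay at 11.9 CPM per kb, level with CG16713 and CG32023 at 11.3 CPM per kb each. CG44198, for 57 amino acids, lay at 8.79 CPM per kb with 30 and 23 counts, and CG42821, for 112 amino acids, at 8.55 CPM per kb with 40 and 52 counts. CG13954 closed the order at 0.233 CPM per kb with 24 and 20 counts, and 44.8% of its exon length is shared with other genes on the same strand, so its count is uncertain. CG43182, CG16713 and CG32023, next to each other in this order, did not differ beyond the spread of their seminal vesicle libraries, which reached 10.1 to 13.6, 11 to 11.6 and 9.42 to 13.1 CPM per kb. At the ends of the order the libraries of adjacent genes did not overlap. CG42828 lay above CG14245, CG14245 above CG34054, and CG13954 below CG13607, in both seminal vesicle libraries.

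Between 3 and 5 CPM lay 12 genes: CG34426, CG3984, CG33099, CG42821, CG12825, CG16713, CG10853, CG33093, CG13795, CG13737, CG3285 and CG13924. Besides those already named, the genes under 3 CPM were CG14218, CG34288, CG43051, CG18095, CG32189, CG14563, CG42833, CG13685, CG30380, CG43351, CG5267, CG14854, CG34331, CG7924, CG15546, CG42704, CG13607, CG32040 and CG32024. CG32024 was lowest by mean level, with 16 and 13 counts in seminal vesicle and 0 in testis. CG3984 lies wholly inside asRNA:CR45600 on the opposite strand, which had 13.7 and 18.9 CPM in seminal vesicle, and 26.0% of the exon length of CG43051 is shared with a small nucleolar RNA it hosts, so both counts are uncertain.

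The limits cut through a continuous range. Just inside the seminal vesicle limit lay CG33093, CG3734 and CG15546, with 1.08, 1.12 and 1.17 CPM in their lower library, and just outside lay CG8708, CG15127 and CG9514 with 0.989 CPM each. At the testis limit, CG10031, CG6012 and CG12825 had 1 count in each testis library. CG2187, CG4757 and CG16704, with 0 and 2 testis counts, were outside it. The genes named just outside either limit thus missed it by a single read.

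The pair of seminal vesicle libraries differed unevenly in these genes. Of the 55 genes, 11 (20%) were over 2-fold higher in replicate 1, against 2.65% of the 7914 genes within the same range of mean level. None was over 2-fold higher in replicate 2, against 9.27% of those genes. That range is wide, from 1.18 to 108.6 CPM, and the median of the set is 2.96 CPM. The comparison genes were not matched to the set in level within it, so counting error may differ between them. Germ cell markers, a kind of gene that the limit on testis keeps out of the set, had a summed ratio of replicate 1 to replicate 2 of 0.494. By counting error alone, the 95% interval of the ratio lay above 1 for 14 genes, below 1 for 6 and included 1 for 35. The named genes that met the same limits leaned the same way, with 6 of 41 (14.6%) over 2-fold higher in replicate 1. No test was made of these shares, since with 1 pair of libraries there is no replicate of the difference.

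CG9512 had the largest ratio of replicate 1 to replicate 2, 10 (95% counting interval 7.35 to 14.1), and none of the 9359 genes at 1 CPM or more in both seminal vesicle libraries had a larger one. CG33093 followed at 5.33 (2.88 to 10.8) with 77 and 12 counts, then CG30371 at 4.00 (2.72 to 6.05), CG3285 at 3.03 (1.75 to 5.53) and CG42828 at 2.67 (2.44 to 2.91). At the other end lay CG34284 at 0.514 (0.372 to 0.707), CG12825 at 0.544 (0.347 to 0.843) with 36 and 55 counts, and CG8620 at 0.573 (0.45 to 0.729). The genes of the set thus did not move together between the libraries.

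**Figure D2:**
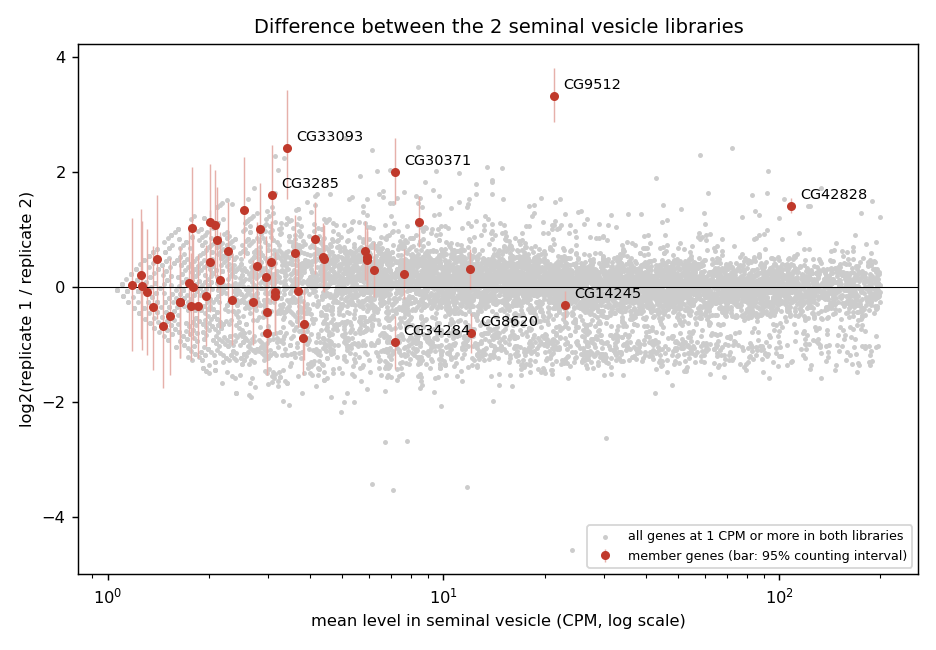
Log2 ratio of the CPM in seminal vesicle replicate 1 to that in replicate 2, against the mean CPM of the pair on a log axis, for the 55 genes (red, with 95% counting intervals as bars) and for all genes at 1 CPM or more in both libraries up to a mean of 200 CPM (grey). The red points reach from -0.96 to 3.33 with a median of 0.20, and the point of CG9512 lies above all grey points.

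Genes of other parts of the male tract differed between the same libraries, and their part in these ratios was not tested. The 19 accessory gland markers, genes for seminal fluid proteins of the gland that opens beside the vesicle, summed to 84.3 and 36.3 CPM in seminal vesicle and 30.6 and 25.2 CPM in testis; 18 were higher in replicate 1, none was at 0 in both seminal vesicle libraries, and 11 of 13 tested were higher in seminal vesicle than in testis, a call made for 42.1% of all genes tested. Without seminal vesicle replicate 1, 7 were. Most of the testis sum of the accessory gland list came from Acp95EF and Acp36DE. Acp95EF went the other way and was higher in testis, with 18.5 and 16.6 CPM against 8.14 and 4.77 CPM in seminal vesicle. Acp36DE, which was not called, had 10.1 and 7.28 CPM in testis and 22.3 and 7.73 CPM in seminal vesicle. The 6 ejaculatory duct and bulb markers summed to 1320 and 970 CPM against 50.3 and 44.8 CPM in testis, with all 5 tested higher in seminal vesicle. Most of the sum came from EbpIII, a protein of the ejaculatory bulb, with 970 and 815 CPM. Dup99B had 190 counts in replicate 1 and 29 in replicate 2, Anp 51 and 4, Est-6 4248 and 1570, and Gld 188 and 100. EbpII went the other way, with 14 and 24 counts.

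Muscle markers summed to 4290 and 3104 CPM and hemocyte markers to 502 and 371 CPM, while germ cell markers went the other way, as given above. Most of the hemocyte sum came from Pxn, with 227 and 135 CPM, and crq, with 241 and 204 CPM, while Hml had 8.37 and 3.15 CPM. Fat body markers summed to 5535 and 6286 CPM, malpighian tubule markers to 594 and 642 CPM, epithelium markers to 526 and 643 CPM, and neuron and glia markers to 30.8 and 38.9 CPM. Nearly all of the fat body sum came from Tsf1, with 2000 and 3298 CPM, and NLaz, with 3341 and 2787 CPM. Lsp2, of the same list, had 1.57 and 2.70 CPM and was not called. Best2 gave 527 and 564 CPM of the malpighian tubule sum. The summed cyst cell and hub level was 479 CPM in both libraries, of which Fas3, an adhesion protein, gave 427 and 429 CPM. Gut markers summed to 116 and 93.9 CPM, nearly all of it from Amy-p, an amylase, and 6 of 13 were at 0 in both seminal vesicle libraries. Testis sums were 847 and 876 CPM for muscle, 56.1 and 47.5 for hemocyte, 166 and 174 for fat body, 8.66 and 9.79 for malpighian tubule, 122 and 106 for epithelium, 26.8 and 27.2 for neuron and glia, 132 and 133 for cyst cells and hub, and 9.87 and 14.1 for gut. Act87E, which was not called, gave 631 and 644 CPM of the testis muscle sum. Calls of higher in testis were made for 5 of 7 tested cyst cell and hub markers, against 44.5% of all genes tested. The same call was made for 1 of 5 epithelium markers (grh) and 1 of 4 neuron and glia markers (brp). Of tested markers, the number higher in seminal vesicle, against 42.1% of all genes tested, was 8 of 10 for muscle, 4 of 4 for hemocyte, 4 of 5 for fat body, 5 of 5 for malpighian tubule, 4 of 5 for epithelium, 3 of 4 for neuron and glia, 1 of 7 for cyst cells and hub, and 1 of 1 for gut.

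**Figure D3:**
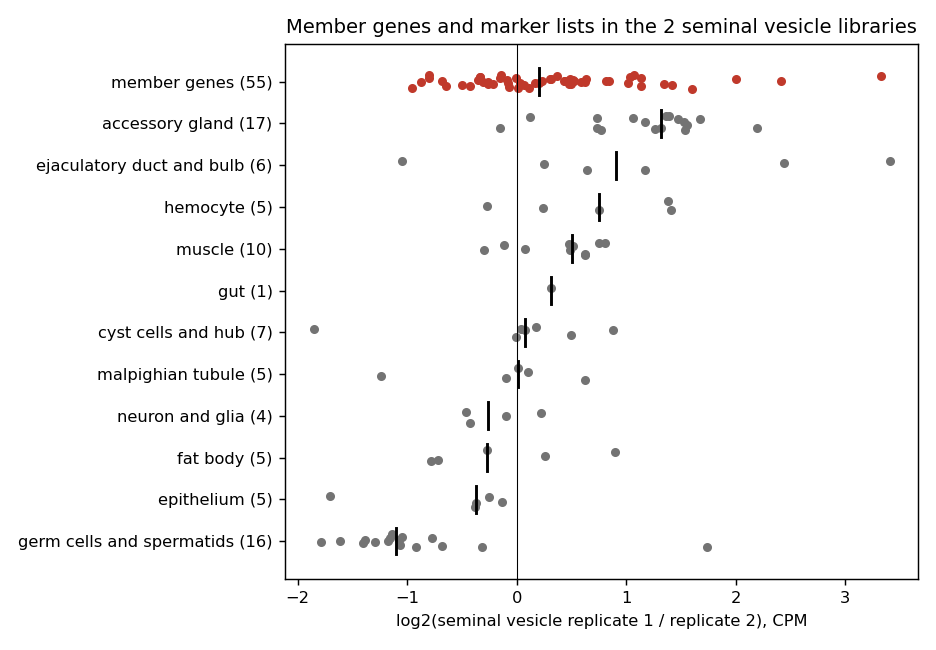
Log2 ratio of seminal vesicle replicate 1 to replicate 2 for each of the 55 genes and for each marker with at least 10 seminal vesicle counts and a count in both libraries, by list; the black line is the median of a list. The medians are 0.20 for the 55 genes, 1.32 for accessory gland, 0.91 for ejaculatory duct and bulb, 0.75 for hemocyte, 0.50 for muscle and -1.11 for germ cells and spermatids.

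The proteins these genes code for were shorter at the median than those of the comparison sets from seminal vesicle and from all CG genes. The median length was 245 amino acids, against 309 for all protein-coding genes with a CG symbol and 295 for the 41 named genes that met the same limits. Under 150 amino acids lay 19 of the 55 (34.5%), against 19.6% of CG genes and 14% of all protein-coding genes. The 88 CG genes that met the mirrored limits, 1 CPM in both testis libraries and under 0.1 CPM in both seminal vesicle libraries, were shorter still, with a median of 204 and 42% under 150. Lengths ran from 27 amino acids for CG43051 to 775 for CG13954.

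The gene models were correspondingly compact. The median exon length was 985 bases against 1364 for CG genes, and 38 of the 55 (69.1%) had 1 annotated transcript, against 57.8% of CG genes. A single exon made up 13 (23.6%), close to the 21.6% of CG genes. The annotated 5′ untranslated region had a median of 35 bases, against 94 in CG genes. By chromosome arm, 8 lay on X, 9 on 2L, 8 on 2R, 14 on 3L and 16 on 3R, and the share on 3L was 25.5% against 19.6% of all protein-coding genes.

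Although spread over all 5 major arms, 7 of the 55 lay within 10 kb of another of the set, in 3 groups, and widening the distance to 50 kb added none. Of the 41 named genes, 0 lay within 20 kb of another, and of the 88 testis CG genes 6 did. On 2L, the Kunitz-type genes CG16713 (2L:3695032-3695411) and CG10031 (2L:3698451-3699092), both on the minus strand, lie 3039 bases apart, with IM33 and CG3604 between them. IM33, a Kunitz-type gene named as an immune-induced molecule, had 0.355 and 0.386 CPM in testis and 25.5 and 24.4 CPM in seminal vesicle (log2 fold change 6.41, SE 0.24, edgeR adjusted p = 3.12e-05). CG16704, in the same row of genes, missed the rule by 1 testis read and had 3.51 and 1.62 CPM in seminal vesicle. Acp24A4, an accessory gland gene in the same row, had 5 and 2 counts there, and CG42465 and CG42467, on the other side of CG10031, had 0 in all 4 libraries.

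On 3L, CG34426 (3L:8802463-8803599, plus strand) and CG32023 (3L:8803602-8804182, minus strand) end facing each other with 2 bases between them, and had 69 and 41 counts and 92 and 55 counts in seminal vesicle. CG32024 (3L:8807601-8808407, plus strand) follows 3418 bases on with 16 and 13. CG34427 and CG13312, which lie between, had 0 counts in both seminal vesicle libraries. CG13308, 136 bases past CG32024, had 1 and 0 counts in those libraries. At the outer ends of the group, CG13311 had 12 and 22 counts there with 0 in testis, at least 13.7-fold above the floor, and CG13309 had 0.355 and 0.451 CPM in testis and 25.7 and 16.4 CPM in seminal vesicle (log2 fold change 6.03, SE 0.35). On 3R, CG33099 (3R:22528920-22530572) and CG33093 (3R:22530694-22531922), both on the minus strand, are 121 bases apart, with 71 and 33 counts and 77 and 12 counts. CG5346, 256 bases downstream of CG33099, had 13.1 and 10.8 CPM in testis and 160 and 177 CPM in seminal vesicle (log2 fold change 4.20, SE 0.26, edgeR adjusted p = 4.4e-05). Both genes of the pair were higher in replicate 1, whereas CG5346 was not. On the other side of the pair, CG5326, 251 bases from CG33093, had only 2 and 4 counts in seminal vesicle.

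**Figure D4:**
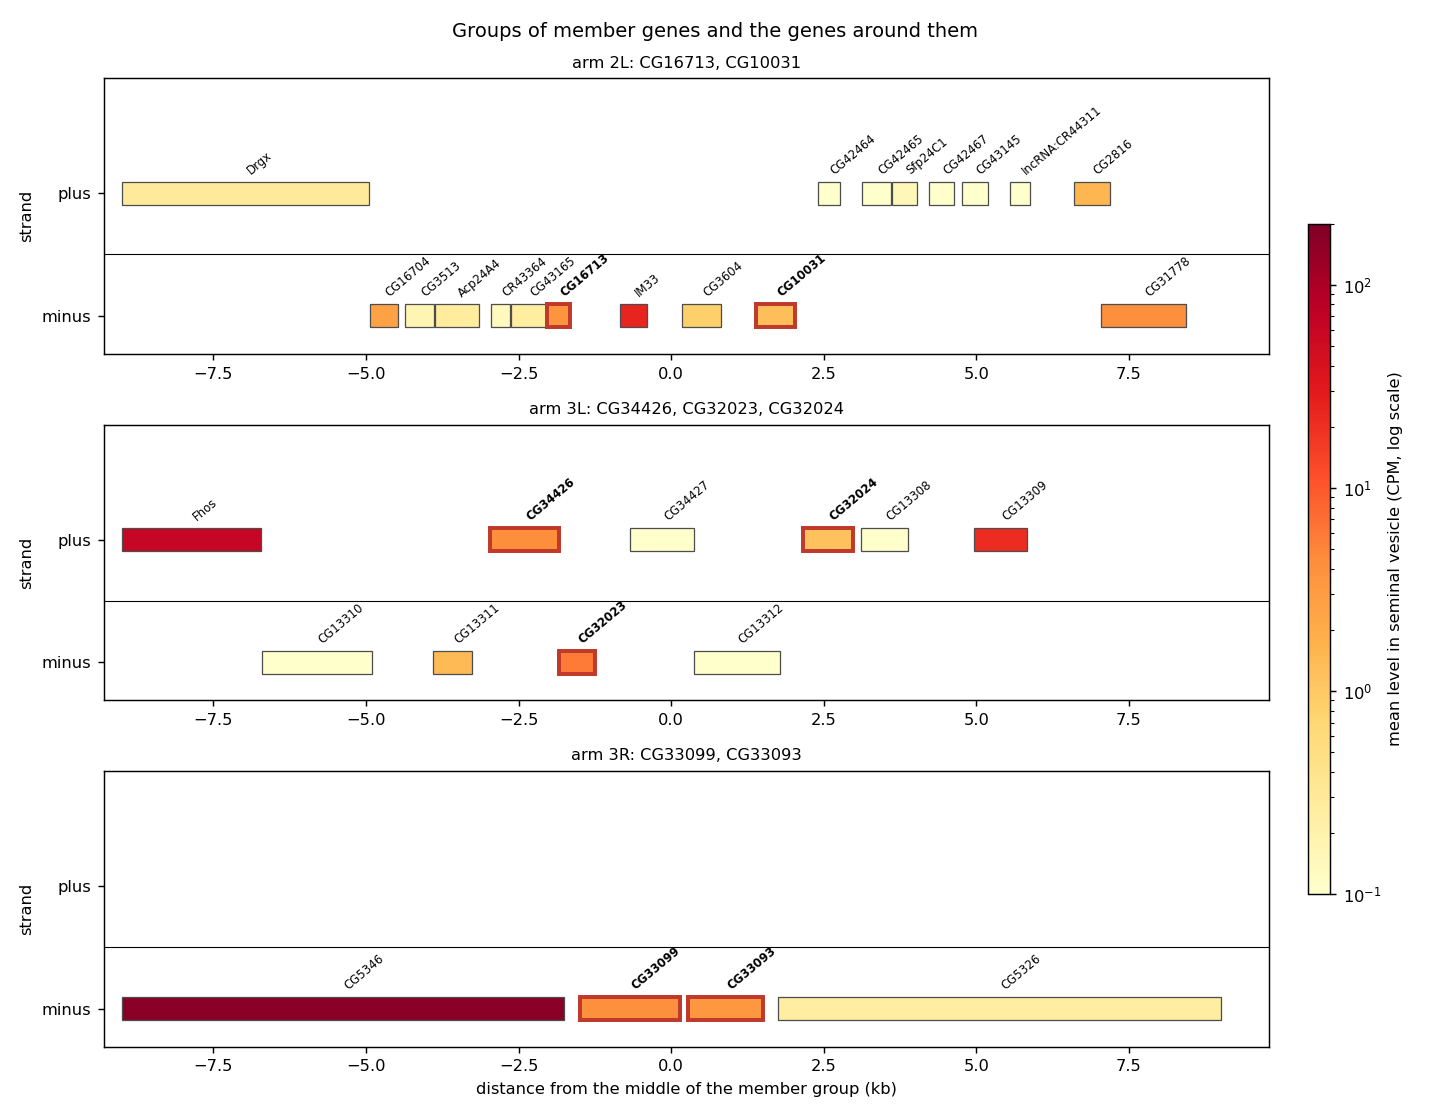
Maps of the 3 groups of neighbouring genes, to 9 kb on either side of the middle of each group, with genes of the plus strand above the line and of the minus strand below; fill colour gives the mean CPM in seminal vesicle on a log scale, red outlines mark genes of the set, and genes reaching past the edge are drawn to the edge. IM33 on 2L and CG5346 on 3R are darker than the outlined genes beside them.

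The genes next to the set could be tested, since they took no part in its choice. The nearest gene on each side that was not itself of the set gave 106 genes, at a median distance of 440.5 bases. Of 66 with enough counts to test, 45 (68.2%) were higher in seminal vesicle, against 42.1% of all genes tested, and 20 (30.3%) were higher in testis, against 44.5%. CG12025, the only neighbour called in neither direction, had 49.8 and 48.5 CPM in testis and 43.6 and 47.8 CPM in seminal vesicle (edgeR adjusted p = 0.192). The median log2 fold change of the 66 was 3.10, also with 3 genes that had 0 counts in a tissue set to their bound, against -0.11 over all genes tested. The remaining 40 had too few counts.

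Strand and choice of set went with the share. Of tested neighbours on the same strand as the gene of the set, 29 of 37 (78.4%) were higher in seminal vesicle, and of those on the opposite strand 17 of 30 (56.7%). Upstream and downstream shares on the same strand were near each other, at 15 of 19 and 14 of 18. Around the 41 named genes 26 of 49 (53.1%) were higher in seminal vesicle, and around the 88 testis CG genes 41 of 120 (34.2%). These shares are counts over genes and were not compared by a test.

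**Figure D5:**
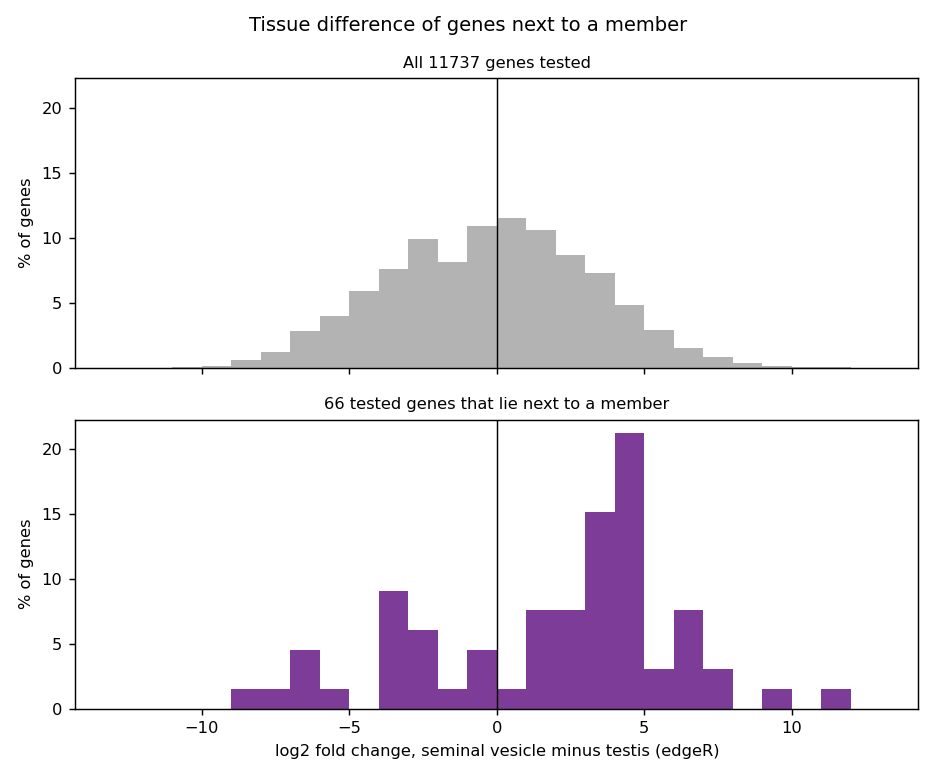
Log2 fold change, seminal vesicle minus testis, for all 11737 genes tested (upper panel) and for the 66 tested genes next to one of the set (lower panel); bars give the percentage of genes in each unit of log2 fold change. The upper panel centres near 0, with a median of -0.11, while most of the lower panel lies to the right, with a median of 3.10 and a smaller group below 0.

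The most abundant neighbours in seminal vesicle included Drip, an aquaporin water channel, which lies 764 bases upstream of CG34054 on the same strand. It had 24.7 and 24.1 CPM in testis and 1306 and 1440 CPM in seminal vesicle, a log2 fold change of 6.20 (SE 0.34, edgeR adjusted p = 3.37e-05). On the other side of CG34054, CG30026 had 0.639 and 0.966 CPM against 340 and 391 CPM (log2 fold change 9.18, SE 0.42). CG34054 itself, with 13.3 and 10.7 CPM, thus lay between a pair of genes with far more counts, both of them higher in seminal vesicle.

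CG42828 lies 102 bases from CG42827, which had 41.7 and 23.3 CPM in testis and 440 and 361 CPM in seminal vesicle (log2 fold change 4.01, SE 0.36, edgeR adjusted p = 0.000152). The testis libraries thus held many reads of CG42827 and a single read of CG42828. CG42821 has CG42822 261 bases downstream, with 1 and 2 counts in testis and 285 and 223 CPM in seminal vesicle, a ratio of 2536 (95% counting interval 867 to 12301). CG42822 was outside the set by 1 testis read while it was far more abundant than CG42821.

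Besides Drip, the neighbours with the highest counts in seminal vesicle were CG7409, CG10553, bbg and CG42827. CG7409, 3856 bases downstream of CG13685, had 6.88 and 8.11 CPM in testis and 700 and 552 CPM in seminal vesicle (log2 fold change 6.75, SE 0.35, edgeR adjusted p = 3.23e-05). CG10553, bbg and CG42827 are described with CG10560, CG4613 and CG42828.

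Other tested neighbours of the genes described above fell on both sides. Higher in seminal vesicle were corn beside CG8620 (log2 fold change 4.28, SE 0.25), CG34330 beside CG7406 (4.27, SE 0.39), CG4393 beside CG42828 (3.92, SE 0.24), CG5863 beside CG42821 (4.84, SE 0.21), CanB2 beside CG12825 (3.13, SE 0.23), CG32816 around CG43182 (3.04, SE 0.30), and CG8034 and CG32536 beside CG8028 (2.2, SE 0.24, and 1.26, SE 0.31). CanB2 codes for a regulatory subunit of the phosphatase calcineurin. Higher in testis were CG43050 beside CG44198 (log2 fold change -6.77, SE 0.26), CG12219 beside CG3823 (-0.73, SE 0.17), and Zmynd8 and lncRNA:CR44091 beside CG11550 (-0.74, SE 0.21, and -2.92, SE 0.68). Dscam2, on the other side of CG8620 from corn, had 18 and 13 counts in testis and 1 and 1 in seminal vesicle, a testis to seminal vesicle ratio of 12.8 (95% counting interval 3.26 to 111).

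CG34284 had a neighbour of each kind. CG14292 had 0.071 and 0.386 CPM in testis and 37.7 and 50.7 CPM in seminal vesicle (log2 fold change 7.87, SE 0.48), while CG14294, 73 bases downstream on the same strand, had 102 and 117 CPM in testis and 1.05 and 3.78 CPM in seminal vesicle (log2 fold change -5.15, SE 0.56). The calls with small folds or few counts hung on a testis library. Without testis replicate 1 or 2 the edgeR adjusted p was 0.0753 and 0.087 for Zmynd8, 0.111 and 0.141 for CG12219, and 0.121 and 0.0663 for CG32536. It was 0.0521 for Dscam2 without replicate 1 and 0.0776 for lncRNA:CR44091 without replicate 2.

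Some neighbours followed the difference between the seminal vesicle libraries and some did not. Next to CG9512, fiz, an ecdysone oxidase of the same enzyme family, had 27.1 and 10.1 CPM, a ratio of 2.69, while Flo2, a flotillin in whose intron CG9512 lies, had 47.7 and 38.4 CPM, a ratio of 1.24. Beside CG10560, CG10553 had 905 and 283 CPM and CG10562 had 33.0 and 11.4 CPM, ratios of 3.20 and 2.89 against 1.55 for CG10560 itself. CG15408, which overlaps the end of CG3285 on the same strand, had a ratio of 2.96 against 3.03. CG42827 had a ratio of 1.22 against 2.67 for CG42828, so here the neighbours parted.

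By the edgeR log2 fold change, the 3 neighbours with the largest fold toward testis lay beside CG10853 and CG30371. CG14983, 11 bases from the end of CG10853 on the opposite strand, had 22.1 and 20.7 CPM in testis and 2 and 0 counts in seminal vesicle, a testis to seminal vesicle ratio of 261 (95% counting interval 72.1 to 2164). CG30375, 347 bases downstream of CG30371 on the same strand, had 47 and 63 counts in testis and 0 in both seminal vesicle libraries, at least 30.3-fold above the floor of 3 counts over both. lncRNA:CR44280, on the other side of CG30371, was at least 9.93-fold above that floor. The places of CG30375 and lncRNA:CR44280 in this order rest on 0 counts in seminal vesicle. CG43050, which came next, had 50.6 and 44.4 CPM in testis and 0.299 and 0.360 CPM in seminal vesicle. CG30371, with 154 and 32 counts in seminal vesicle and 0 in testis, thus stood between genes with the reverse pattern.

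Of the 55 genes, 15 (27.3%) lay inside the span of another gene, against 11% of all protein-coding genes, 15.9% of CG genes, 14.6% of the 41 named genes and 19.3% of the 88 testis CG genes. For 12 the host was a gene with an intron around them. Of 10 hosts with enough counts, 8 were higher in seminal vesicle and 2 in testis, against 42.1% and 44.5% of all genes tested. All of these 10 except bun were also among the neighbours counted above, so this is not a separate result. The hosts higher in seminal vesicle included bbg, around CG4613 and on the same strand. bbg had 19.9 and 17.9 CPM in testis and 412 and 596 CPM in seminal vesicle (log2 fold change 5.13, SE 0.37, edgeR adjusted p = 6.66e-05).

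Root, which codes for the ciliary rootlet protein rootletin, was the clearest host on the other side. It had 396 and 414 CPM in testis and 13.2 and 34.4 CPM in seminal vesicle (log2 fold change -3.68, SE 0.54, edgeR adjusted p = 0.00117), while CG13607, in its intron on the opposite strand, had 1 and 0 counts in testis and 17 and 15 in seminal vesicle. CG13607 was thus read at 0 or 1 count in the tissue in which the gene around it was abundant. The host dysc, around CG13737, was also higher in testis, with 29 and 25 counts against 0 and 2.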

How the data were processed

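Reads per gene were counted by the authors, and the deposited values are raw counts; HTSeq 0.6.1p1, TopHat2 2.1.0 and CASAVA 1.8.2 are named in the submitters' processing notes, and per the labels' protocols the kit was stranded, with 200 ng of total RNA, 50-base reads and a different spike-in pool for each tissue. Whether counting used strand is not given in the sources used here. Rows of no gene (11.0% to 14.2% of all) and 96 spike-in rows were left out. CPM was taken on total gene counts. A count of 0 allows 0.193 to 0.270 CPM in a library (3 counts). Intervals are exact, at 95%, and with floors cover counting error only, since reads are not independent molecules.

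Neighbours and markers were tested with edgeR 4.0.16 in R 4.3.3 (filterByExpr with minimum count 10 and minimum total 15, TMM, robust quasi-likelihood F test, Benjamini-Hochberg 0.05) on the whole table; all 55 genes of the set passed this filter, which they pass through seminal vesicle alone, and no test of them is given. The test was checked on simulated data in which few genes differed. Most genes tested here were called, so that check does not cover a contrast of this kind. The standard error is the log2 fold change over the square root of F. DESeq2 1.42.0 was an alternative. Tables were joined with pandas 2.3.3.

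The genes of the set, 11 marker lists with 106 entries (4 unmatched: nos, Peb, wupA and para) and the tests were chosen with earlier results of these data known. Values per library are given by rule for the 12 genes with the highest CPM, the 12 highest per kb, the 3 largest and smallest replicate ratios from 3 CPM, grouped genes and genes at the limits, and for neighbours the 5 with the highest CPM in seminal vesicle, the 3 with the largest fold toward testis and those beside a named gene that could be tested (as fold changes where no more is said); the protein families and host genes described beyond that were chosen after their values were seen. Protein and promoter sequences were not used here.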

Additional observations from a re-analysis of the deposited data

How the results depend on the processing

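The number of genes in the set follows its limits, which were varied without changing how any gene was counted. It was 30 at 2 CPM in seminal vesicle, 89 at 0.5 CPM, 21 with 0 testis counts and 116 under 0.2 CPM in testis. On TMM library sizes it was 61, all 55 among them, and without the 2 most abundant seminal vesicle genes in the totals 72. Leaving out 1 library gave 68 to 93, the latter without testis replicate 2; a condition on fewer libraries can only add genes.

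The 45 neighbours higher in seminal vesicle became 45 to 47 with a library left out, and the 20 higher in testis 16 to 20. With the replicate number as a block they were 45 and 20; the numbers do not mark a pairing (same-numbered libraries deviated with r = 0.07 over 11737 genes), and bond, a gene near the 3R group, was then not called (log2 fold change 0.72). Taking every gene within 10 kb gave 108 and 65, or 58.4% and 35.1% of 185, and neighbours of genes with 0 testis counts gave 16 and 9 of 25. Spike-in factors, whose pools differ by tissue, moved the median of all genes from -0.11 to -1.18 and left 62.1% of neighbours higher in seminal vesicle against 27.8% of all genes. They turned CG2818 to -0.092 and bond to -0.33. Library size alone moved that median to -0.49.

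Markers called higher in seminal vesicle fell from 11 to 1 for accessory gland and from 5 to 3 for ejaculatory duct and bulb when 5 CPM in 2 libraries was required, because fewer were tested. With a library left out, accessory gland calls ran from 7 (without seminal vesicle replicate 1) to 14. These marker alternatives, and the replicate ratio on TMM sizes (8 genes over 2-fold in replicate 1 in place of 11), were chosen after seeing the data. Analyses of closest paralogs, hydrophobic stretches, protein motifs and promoter motifs were not run. With 0 or 1 testis read a gene, depth limits every statement on testis.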
